A study of Mus musculus with 4 samples.

Results

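Transcripts of 10 genes of the VEGF and angiopoietin pathways were followed across the cell classes of the aged mouse kidney. The genes were taken by symbol from the 31053 genes of the count tables, and each of the 10 symbols matched 1 row: the ligands Vegfa, Angpt1 and Angpt2, the receptors Kdr, Flt1, Flt4, Tek and Tie1, the co-receptor Nrp1, and Esm1. Kidneys came from male C57BL/6 mice that were 19 months old when treatment began. One group received BPTES, a small-molecule inhibitor of the glutaminase GLS1, for 1 month, and the control group received the vehicle DMSO for the same time. Each group held 2 single-cell libraries, each mixed from 20000 sorted CD45-negative and 9000 sorted CD45-positive cells of a tissue. The labels number the libraries within a group without saying that each is a separate animal, so p-values measure only the spread between these libraries, which may be technical.

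VEGF-A is the main growth and survival factor of endothelial cells, and in the kidney it is made by podocytes and tubule cells that lie beside fenestrated capillaries. It signals chiefly through Kdr (VEGFR2), with Nrp1 as a co-receptor and Flt1 (VEGFR1) as a high-affinity receptor that limits its availability, while Flt4 (VEGFR3) is the receptor for VEGF-C and is known from lymphatic vessels. Angpt1 activates the receptor Tek (Tie2) and stabilises vessels, Angpt2 can oppose it, and Tie1 is the partner receptor of Tek. Esm1 (endocan) is a secreted proteoglycan induced by VEGF in endothelial tip cells.

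On GRCm38, the GENCODE annotation places all 10 genes as protein-coding. Esm1 (ENSMUSG00000042379) spans chromosome 13, 113209659 to 113218098, on the plus strand. Vegfa (ENSMUSG00000023951) spans chromosome 17, 46016993 to 46032369, and Flt1 (ENSMUSG00000029648) chromosome 5, 147561604 to 147726011, both on the minus strand. RefSeq promoter sequences (GRCm38.p6) were matched for 8 of the 10 genes, and Angpt1 and Angpt2 had no match. Below are the 250 bases before the RefSeq start for Esm1 and Vegfa, whose transcripts differed with treatment in endothelium and in tubule, and for Flt1, an endothelial receptor whose transcripts passed the test in none of the classes as reported here. Capitals mark the ETS core GGAAG and the HIF cores ACGTG and GCGTG, searched on both strands.
Esm1 (chr13:113209409-113209658, plus strand): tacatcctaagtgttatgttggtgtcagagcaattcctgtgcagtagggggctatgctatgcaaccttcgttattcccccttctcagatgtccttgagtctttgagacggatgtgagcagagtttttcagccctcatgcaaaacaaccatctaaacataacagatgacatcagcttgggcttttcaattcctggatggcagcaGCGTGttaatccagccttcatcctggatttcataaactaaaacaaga
Vegfa (chr17:46032378-46032627, minus strand): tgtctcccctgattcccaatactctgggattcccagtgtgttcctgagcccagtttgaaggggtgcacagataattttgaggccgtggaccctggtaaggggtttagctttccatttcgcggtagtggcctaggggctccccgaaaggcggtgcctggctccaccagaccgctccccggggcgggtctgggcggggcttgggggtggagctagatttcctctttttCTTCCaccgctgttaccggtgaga
Flt1 (chr5:147726012-147726261, minus strand): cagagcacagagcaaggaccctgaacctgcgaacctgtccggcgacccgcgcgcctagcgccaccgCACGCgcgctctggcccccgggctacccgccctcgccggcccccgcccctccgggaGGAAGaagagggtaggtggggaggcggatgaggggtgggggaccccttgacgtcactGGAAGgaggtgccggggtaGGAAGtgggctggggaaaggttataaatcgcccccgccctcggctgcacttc
The Esm1 window held 1 GCGTG and 0 GGAAG, the printed Vegfa window 1 GGAAG and neither HIF core, and the Flt1 window 3 GGAAG and 1 GCGTG. Vegfa has a further RefSeq start, whose window (chr17:46025164-46025413, minus strand, not printed) held 1 GGAAG, 1 ACGTG and 1 GCGTG. Among all 32851 windows of this length, 64.1% held GGAAG, 16.6% ACGTG and 28.2% GCGTG. These are letter matches and not measured binding.

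The libraries held 17907 to 20091 barcodes and 249881074 to 297947661 UMIs, and 30.9% to 34.2% of barcodes had over 50% mitochondrial UMIs. After filtering, 46738 cells fell into 54 clusters, which were named from marker genes: a class name stands for cells like the type named. Any pair of libraries shared 36 to 54 cell barcodes among 11686 to 13130 filtered barcodes each. The 10 genes and the other pathway genes were left out of the genes used for clustering. Levels are given as CPM, the UMIs of a gene per 1000000 UMIs summed over the cells of a class in a library, and values are listed for BPTES libraries 1 and 2 and then DMSO libraries 1 and 2. The 8 glomerular endothelial markers summed to 6596 to 11098 CPM in glomerular and 848 to 1255 CPM in capillary endothelium. No podocyte class was found, so podocyte Vegfa was not analysed here. Members were tested for treatment in 22 separate classes, and 8 of 118 tested pairs of member and class passed, in 5 classes, where 1.28% of all pairs of gene and class did; that share ran from 0 to 9.20% by class.

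Vegfa transcripts were spread over the tubule. Proximal tubule S1-S2 cells, the most numerous tubule class, held 34.9% to 63.7% of the Vegfa UMIs of a library, and cells of unnamed clusters held 16.4% to 27.6%. The largest unnamed cluster, with 2030 cells, scored highest for S1-S2 cells but a marker of another type led it. It is left out of the S1-S2 share and of the S1-S2 tests below. Among named tubule classes, collecting duct principal cells had the highest level in 3 of 4 libraries, at 169, 170 and 150, 112 CPM, with intercalated cells at 118 CPM in DMSO library 2. S3 cells of the proximal tubule were far lower, at 33.0, 38.0 and 33.8, 37.1 CPM. S1-S2, thick ascending limb, distal convoluted tubule and intercalated cells overlapped between 83.0 and 132 CPM and could not be ordered. Thin limb cells were at 66.5, 93.5 and 56.1, 82.8 CPM. Capillary endothelium held 3.06 to 4.87 CPM. Vegfa was not confined to the tubule: glomerular endothelium and neutrophils, whose levels are given below, overlapped the tubule classes.

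The angiopoietins differed in where their levels were high. Angpt1 was at 191 to 257 CPM in principal cells and 136 to 198 CPM in S1-S2 cells, which overlapped, and at 2.69 to 3.28 CPM in S3 cells. S1-S2 cells held 69.8% to 78.0% of its UMIs. Angpt2 was at 245 to 723 CPM in thin limb cells, which held 37.8% to 66.3% of its UMIs from 29 to 97 cells a library. Lymphatic endothelium, with 3 to 6 cells a library, was at 92.6, 253 and 415, 324 CPM and venous endothelium at 88.0, 304 and 154, 145 CPM, so thin limb was above venous endothelium in every library, and lymphatic endothelium was above thin limb in both DMSO libraries only.

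**Figure D1:**
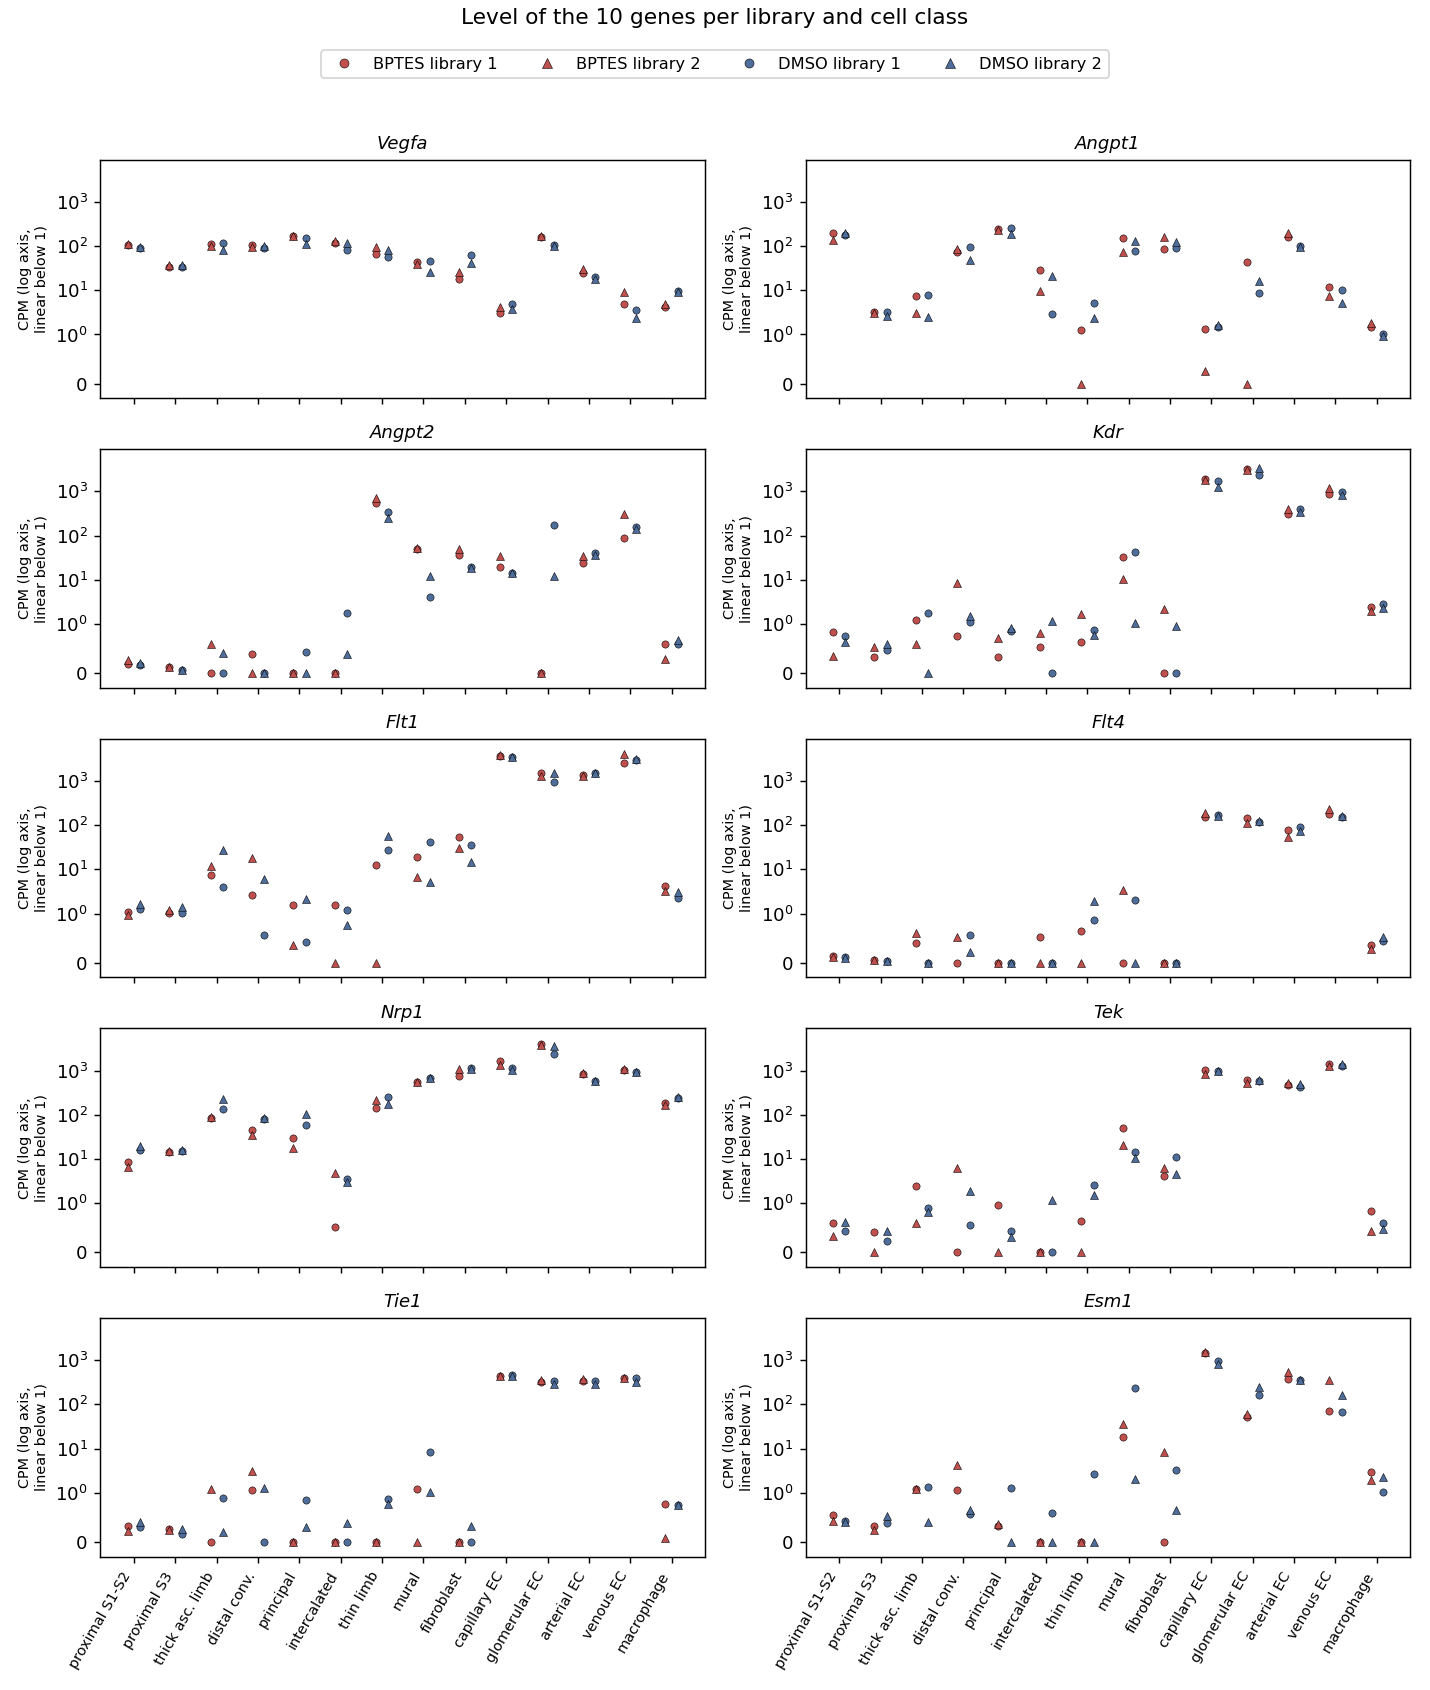
CPM of each of the 10 genes (vertical axis, logarithmic above 1) in 14 cell classes; each point is 1 library, with BPTES in red, DMSO in blue, circles for library 1 and triangles for library 2. The receptors Kdr, Flt1, Flt4, Tek and Tie1 sit high in the endothelial classes, Angpt2 stands out in thin limb and Vegfa is spread over the tubule.

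The receptors were endothelial transcripts. Kdr was highest in glomerular endothelium, at 3240, 3123 and 2357, 3360 CPM, above capillary endothelium at 1935, 1801 and 1708, 1279 CPM in every library. Flt1 had the other order, with 969 to 1541 CPM in glomerular and 3535 to 3791 CPM in capillary endothelium, where the venous class (2541 to 4126 CPM) overlapped it. Arterial endothelium was lowest of these classes for Kdr, at 312 to 402 CPM. Nrp1 was not confined to vessels: it reached 2416 to 3909 CPM in glomerular endothelium, but also 763 to 1149 CPM in fibroblasts, 547 to 688 CPM in mural cells and 165 to 259 CPM in macrophages.

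Tek was highest in venous endothelium (1269 to 1407 CPM), then capillary (857 to 1026 CPM), glomerular (523 to 606 CPM) and arterial endothelium (421 to 538 CPM); the glomerular and arterial ranges overlapped. Tie1 was at 432 to 473 CPM in capillary endothelium and at 283 to 396 CPM across the other three. Flt4 was at 648 to 1265 CPM in lymphatic endothelium, from only 3 to 6 cells a library, and at 150 to 189 CPM in capillary endothelium. Esm1 was largely a capillary transcript: capillary endothelium held 77.7% to 84.4% of its UMIs, and principal and intercalated cells were at 0 to 1.29 CPM.

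Over the mean levels of 22 classes, the genes whose log2 CPM followed Kdr most closely among 14125 genes were Emcn (Pearson r = 0.991), Cyyr1 (0.988) and Shank3 (0.988). For Esm1 they were Lrrc32 (0.970), Crispld1 (0.959) and Jam2 (0.957), and for Vegfa Fam20c, Ank3 and Sh3gl2, all at about 0.79. The classes share libraries, and these correlations are descriptions without a test.

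Esm1 was higher under BPTES in capillary endothelium. Its level was 1447 and 1532 CPM with BPTES and 951 and 823 CPM with DMSO, so the groups did not overlap (1489 ± 59.7 against 887 ± 90.5 CPM, SD, n = 2 each). The log2 fold change was 0.76 (SE 0.11, edgeR quasi-likelihood test, adjusted p = 0.0148), a 1.70-fold rise. Esm1 was the only one of the 9 members tested in this class that passed the threshold of 0.05, where 0.328% of all 12185 genes tested did. Angpt1 was too low there to be tested.

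The receptors of the same cells did not pass. Nrp1 was at 1647 and 1329 CPM under BPTES and 1125 and 1014 CPM under DMSO, without overlap (log2 fold change 0.49, SE 0.12, adjusted p = 0.133). Kdr differed by 0.34 (SE 0.13, edgeR, adjusted p = 0.41), with 1279 CPM in DMSO library 2 below the other 3 libraries. The difference was 0.55 without DMSO library 1, where Kdr passed but 1 DMSO library was left, and 0.16 without DMSO library 2. Flt1 (0.09, SE 0.10), Flt4 (0.05, SE 0.12), Tek (-0.05, SE 0.11) and Tie1 (-0.07, SE 0.09) were close to 0 on the log2 scale. Angpt2 was at 19.3, 34.9 and 14.0, 14.0 CPM (0.91, SE 0.28, adjusted p = 0.321). It passed without the low-count filter (0.90, edgeR, adjusted p = 0.000115), where 422 of 19785 genes did. Its difference was 1.35 without BPTES library 1 and 0.46 without BPTES library 2. It was 0.24 with predicted doublets kept and 0.35 to 0.38 under the other cell filter and clusterings. DESeq2 also called Nrp1 in this class (0.50, adjusted p = 0.0194; DESeq2 called 0.599% of genes).

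Over all cells of the named endothelial clusters summed together, 3 of 10 members passed, where 0.73% of genes did. Unnamed clusters of 571 and 256 cells with few UMIs also scored highest for endothelium and were left out. Esm1 was at 904 and 1015 CPM under BPTES and 624 and 590 CPM under DMSO (0.67, SE 0.09, adjusted p = 0.00586). Nrp1 was at 1536 and 1383 against 1119 and 1049 CPM (0.44, SE 0.08, adjusted p = 0.0366). Angpt1 was at 45.0 and 31.4 against 21.1 and 18.2 CPM (0.99, SE 0.16, adjusted p = 0.0408). The calls of Nrp1 and Angpt1 were both lost with predicted doublets kept (adjusted p = 0.0646 and 0.102), without BPTES library 1 (0.176 and 0.0856) and without DMSO library 2 (0.0778 and 0.0772), and that of Nrp1 also without BPTES library 2 (0.0692). These sums mix the endothelial classes in the share each had in a library, and include unnamed sub-clusters, which held 183, 6 and 28, 69 of the 564, 214 and 232, 291 Angpt1 UMIs. Of those, 164, 2 and 24, 58 lay in sub-cluster 14, whose leading genes include the mural markers Rgs5, Acta2 and Tagln, and 15, 3 and 1, 11 lay in sub-cluster 13, led by proximal tubule genes such as Lrp2 and Slc34a1; all endothelium was not tested without them. Also, the median UMI count per cell was lower under BPTES, at 11442, 11010.5 and 11667, 13164; its part in the result was not tested.

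Capillary endothelium was made up of 7 sub-clusters, and their cell numbers differed between libraries. Of the 608, 354 and 548, 725 capillary cells, sub-cluster 0, led by Npr3 and Esm1, held 224, 104 and 124, 69. Sub-cluster 2, led by Inhbb, held 31, 22 and 78, 224. As a share of the class, sub-cluster 0 was larger and sub-cluster 2 smaller in both BPTES libraries than in either DMSO library. The part of these shares in the Esm1 result of the class was not tested beyond the fits that follow. Esm1 had a positive fold change within each of the 7 sub-clusters, from 0.18 to 0.93 on the log2 scale, and passed the test in sub-clusters 0 and 9, where 0.224% and 0.113% of all genes did. It did not pass in sub-clusters 1, 2, 4, 6 and 8, where 0.0206%, 0.199%, 0.227%, 0.0473% and 0.388% of genes did. In sub-cluster 0 it was at 2091 and 2135 CPM under BPTES and 1470 and 1310 CPM under DMSO. Without sub-cluster 0, the fold change of the class was 0.59 with an adjusted p of 0.0772 (edgeR), and 0.231% of genes passed. The median UMI count per cell was 10447.5, 10567.5 and 10071, 10229 in sub-cluster 0 and 7838.5, 7422 and 7996.5, 8866 in sub-cluster 9. In sub-cluster 9 the median mitochondrial share was 1.98%, 2.16% and 2.25%, 2.24%. The part of these values in the results was not tested.

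**Figure D2:**
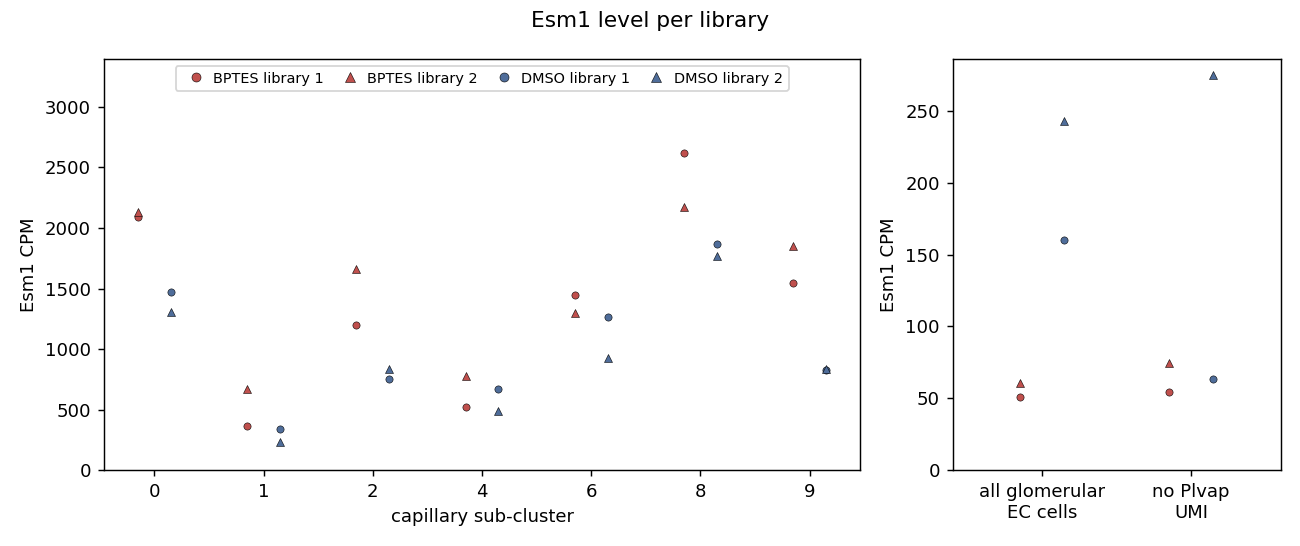
Esm1 CPM per library in the 7 capillary sub-clusters (left) and in glomerular endothelium, over all cells and over cells without a Plvap UMI (right); symbols as in the plot of levels. In sub-cluster 0 both BPTES libraries (2091 and 2135 CPM) lie above both DMSO libraries (1470 and 1310 CPM), and in glomerular cells without a Plvap UMI the groups overlap.

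In glomerular endothelium Esm1 was lower under BPTES, on few cells. With BPTES the class had 34 and 25 cells, and with DMSO 55 and 43; the planned minimum was 30 cells a library, and the fit with a minimum of 20 was added after these numbers were seen. Esm1 was at 50.7 and 60.4 CPM under BPTES and 160 and 243 CPM under DMSO, from 30, 24 and 147, 178 UMIs. The log2 fold change was -1.89 (SE 0.27, adjusted p = 0.00152), and Esm1 was the only one of 9 tested members past the threshold, which 0.316% of 8237 genes passed.

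These UMIs came from a handful of cells: 8, 2 and 11, 10 cells had an Esm1 UMI, and single cells held 14, 23 and 36, 86 of the UMIs. Plvap, a marker of fenestrated peritubular capillaries, moved with Esm1, at 3, 14 and 168, 30 UMIs, and the 8 summed glomerular endothelial markers moved the other way, at 10627, 11098 and 6596, 8750 CPM; their part in the result was not tested. Among the cells without a Plvap UMI, Esm1 was at 54.7, 74.9 and 63.7, 275 CPM, the groups overlapped and the test was not passed (-1.46, SE 0.96, adjusted p = 0.88; 0.283% of genes passed). With predicted doublets kept it was not passed either (adjusted p = 0.186). The median UMI count of the cells of the class moved the same way as Esm1, at 15466, 14916 and 15962, 16390.

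No other member passed in glomerular endothelium. Kdr differed by 0.13 (SE 0.19), Flt1 by 0.18 (SE 0.20) and Nrp1 by 0.35 (SE 0.20) on the log2 scale. Without DMSO library 2, which leaves 1 DMSO library, Nrp1 differed by 0.66 and Flt1 by 0.56. Both passed in that fit, but so did far more genes than in the main fit. Vegfa was at 160 and 166 CPM under BPTES and 108 and 99.7 CPM under DMSO (0.63, SE 0.21, adjusted p = 0.353). Of the podocyte markers reported here, Nphs1 and Wt1 had no UMI in these cells in any library and Ptpro had 1 UMI in 1 library, while Thsd7a had 41, 14 and 49, 57 UMIs and Podxl, which endothelium also expresses, 494, 344 and 558, 556; their part in the Vegfa level was not tested. Angpt2 had 0 UMIs in both libraries with BPTES and 159 and 9 with DMSO, with 84 of the 159 in 1 cell.

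The treatment difference of Esm1 was tested between both endothelial classes. The interaction, glomerular minus capillary, was -2.64 (SE 0.28, adjusted p = 1.1e-06), and Esm1 was the only member of 10 tested past the threshold, which 0.249% of genes passed. With predicted doublets kept, the interaction was -2.66 with an adjusted p of 0.497. The glomerular side rests on the few cells and the Plvap levels given above.

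**Figure D3:**
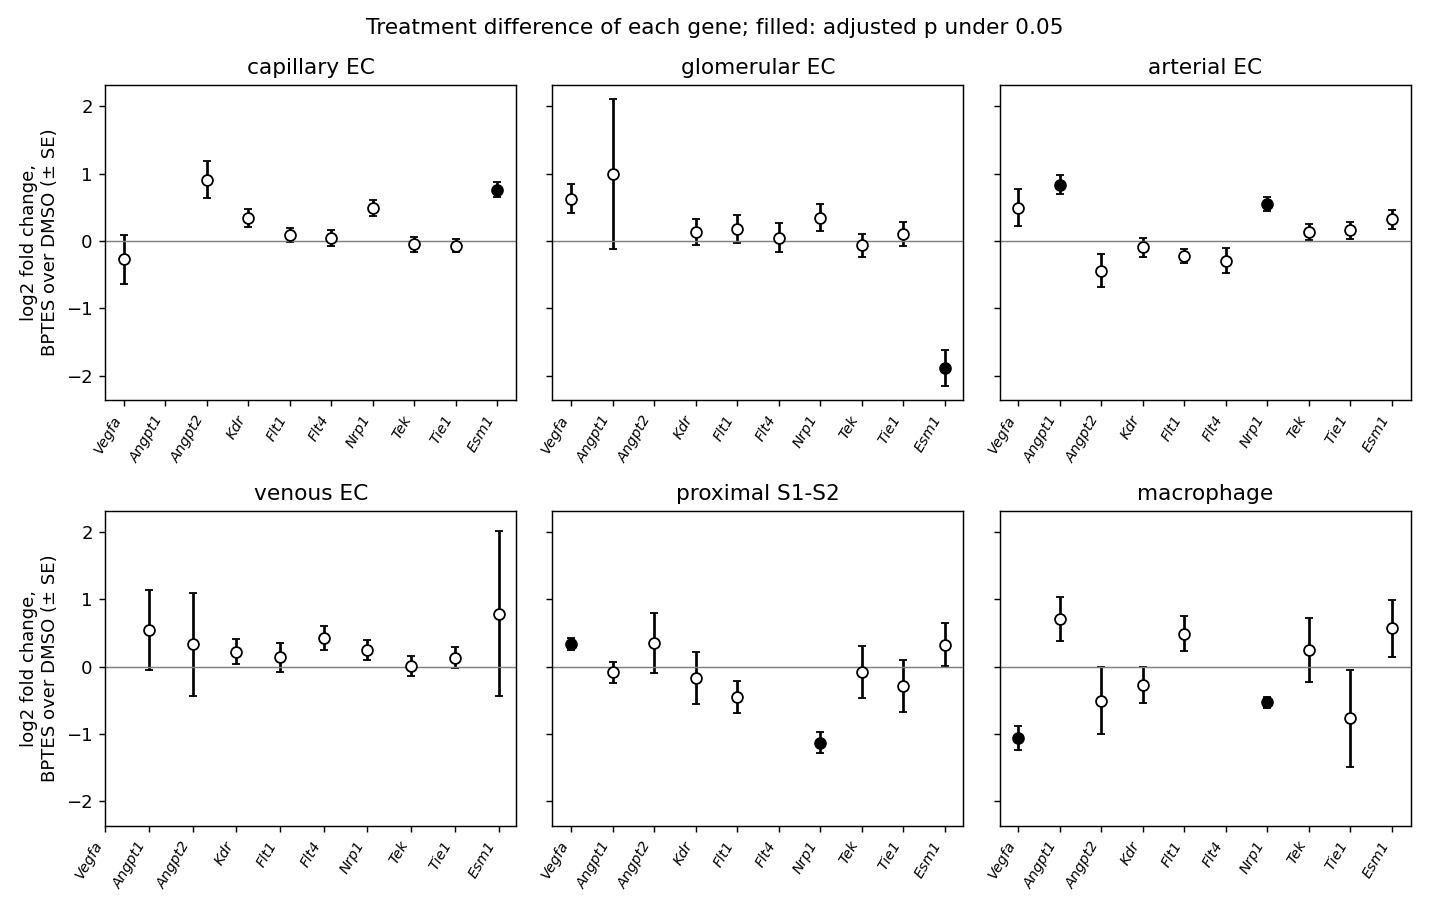
log2 fold change of each gene, BPTES over DMSO, with its SE (bars) in 6 classes; filled points passed an adjusted p of 0.05, and genes too low to be tested are absent. Esm1 is filled in capillary (0.76) and glomerular endothelium (-1.89), Angpt1 and Nrp1 in arterial endothelium, and Vegfa and Nrp1 in S1-S2 cells and macrophages.

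Arterial endothelium showed higher Angpt1 and Nrp1 under BPTES. Angpt1, the Tek ligand, was at 162 and 193 CPM under BPTES and 99.5 and 96.2 CPM under DMSO (log2 fold change 0.84, SE 0.14, adjusted p = 0.0155). Nrp1 was at 849 and 871 against 594 and 577 CPM (0.55, SE 0.11, adjusted p = 0.0431). In this class 2 of 10 members passed, and 0.432% of all genes did. Proximal tubule S1-S2 cells also carry Angpt1, and their summed markers in arterial cells were at 133, 101 and 125, 113 CPM. Mural cells carried Angpt1 too, with 126, 42 and 38, 126 UMIs, as did fibroblasts, with 42, 74 and 82, 775 UMIs. The part of any of these cells in the arterial result was not tested. In arterial cells the median UMI count per cell was lower under BPTES, at 14090, 12879 and 16051, 14891. The median mitochondrial share was higher, at 1.84%, 1.86% and 1.70%, 1.67%. The part of these values in the result was not tested. The Angpt1 call was lost without BPTES library 2 (0.72, adjusted p = 0.147), and the Nrp1 call without BPTES library 1 (0.57, adjusted p = 0.125) or BPTES library 2 (0.53, adjusted p = 0.287).

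Angpt1 in arterial cells lay mainly in sub-clusters 5 and 15. In sub-cluster 5, led by Aqp1, it was at 168, 205 and 93.7, 114 CPM and passed the test (adjusted p = 0.0108; 0.66% of genes did). In sub-cluster 15, whose leading genes include the arterial connexin Gja5, it was at 606, 482 and 278, 232 CPM from 8 to 13 cells a library. In venous endothelium no member of 9 passed edgeR's test (0.0321% of all genes did); 1 had an unadjusted p under 0.05, and DESeq2 called 0.

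Among tubule and stroma classes, 2 of 37 tested pairs of member and class passed, where 1.91% of all pairs of gene and class did. Both were in proximal tubule S1-S2 cells, a class in which 9.20% of genes passed. That share varied with the processing: 203 of 15495 genes passed at Leiden resolution 2 and 3971 of 15111 with the replicate block. Vegfa was at 108 and 112 CPM under BPTES and 90.4 and 93.7 CPM under DMSO, a small difference without overlap (log2 fold change 0.34, SE 0.09, adjusted p = 0.0477). The median mitochondrial share of S1-S2 cells also did not overlap, at 21.3% and 23.8% under BPTES and 14.9% and 19.9% under DMSO, and its part in the S1-S2 results was not tested. Its call was lost without BPTES library 2 (0.26, adjusted p = 0.252) or DMSO library 1 (0.27, adjusted p = 0.203), at Leiden resolution 2 (0.28, adjusted p = 0.103), with the pathway genes used in clustering (0.31, adjusted p = 0.0557) and with predicted doublets kept (0.37, adjusted p = 0.0501). In S3 cells Vegfa did not separate the groups (0.04, SE 0.14), and in principal cells it was 0.41 (SE 0.15, adjusted p = 0.318).

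Nrp1 was lower under BPTES in S1-S2 cells, at 8.66 and 6.55 against 15.7 and 19.4 CPM (-1.13, SE 0.16, adjusted p = 0.0228). The call was lost without BPTES library 2 (-0.98, adjusted p = 0.0851) and with predicted doublets kept (-0.76, adjusted p = 0.11). Summed macrophage markers in these cells moved the same way, at 15.8, 12.6 and 27.1, 31.8 CPM, as did endothelial markers, at 5.7, 3.6 and 6.7, 8.6 CPM, and injured-tubule markers, at 2.3, 1.6 and 10.5, 12.0 CPM; their part in the result was not tested. Nrp1 groups also did not overlap in thick ascending limb (83.1, 89.0 and 138, 230 CPM), distal convoluted tubule (44.3, 34.5 and 81.8, 83.3 CPM) and principal cells (30.2, 17.5 and 57.9, 107 CPM), where adjusted p was 0.122, 0.133 and 0.206. All 3 passed without the low-count filter, where 234 of 18255, 489 of 18073 and 632 of 18524 genes did. The main fits called 14, 7 and 3 genes. Thick ascending limb and distal convoluted tubule passed with the replicate block, where 315 of 10702 and 801 of 10411 genes did. Principal cells passed with DESeq2 (adjusted p = 0.000533), where 70 of 11310 genes did. All 3 also passed without DMSO library 1, which leaves 1 library in that group and raised the calls over all genes. In thin limb cells the Nrp1 groups overlapped, and in injured proximal tubule the fold change of Nrp1 was positive. How many of all genes had groups without overlap was not counted. The median mitochondrial share in thick ascending limb was 11.8%, 12.1% and 6.18%, 8.09%, and the median UMI count in principal cells 29634, 27195 and 24913.5, 24043; their part in the results was not tested.

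The angiopoietins did not pass in tubule or stroma. Angpt1 in S1-S2 cells was at 198, 136 and 177, 196 CPM (-0.09, SE 0.15). Angpt2 in thin limb cells was at 535 and 723 CPM under BPTES and 340 and 245 CPM under DMSO (1.11, SE 0.26, adjusted p = 0.418; 0.0576% of genes passed). It passed without the low-count filter (1.08, edgeR, adjusted p = 0.00188), where 229 of 17972 genes did. The thin limb markers moved with it, at 7179, 10914 and 6684, 4569 CPM, as did the median mitochondrial share, at 6.02%, 4.19% and 4.06%, 3.10%; their part in the result was not tested. In mural cells Angpt2 was at 50.0, 53.0 and 4.17, 12.5 CPM, from 41, 31 and 2, 12 UMIs (2.34, SE 0.48, edgeR, adjusted p = 0.0595). It reached the level of the low-count filter in the BPTES libraries only, so it entered the test through the group where it was high. Only 10, 9 and 2, 7 cells had an Angpt2 UMI, and single cells held 19 of the 41 and 14 of the 31 under BPTES. With predicted doublets kept the difference was 0.47 (adjusted p = 0.92), and with a mitochondrial limit of 25% it was 1.73 (adjusted p = 0.158). DESeq2 did not call it (adjusted p = 0.124). It passed with the replicate block (2.45, edgeR, adjusted p = 0.00845), where 189 of 9011 genes did, and without the low-count filter, where 498 of 17202 did. The main fit called 89 of 9011. It also passed with any 1 library left out, but such fits leave 1 library in a group, and more genes passed in each than in the main fit. In mural cells the median UMI count was 9858, 15100.5 and 7094.5, 5054 and the median mitochondrial share 3.12%, 3.13% and 5.48%, 5.41%, both without overlap, and their part in the mural results was not tested. The leading genes of the mural cluster held as many fibroblast as mural markers, 3 of each among 10. Fibroblasts, at 17, 16 and 30, 183 cells, were too few to test; their Vegfa was at 18.4, 25.7 and 62.6, 41.6 CPM.

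**Figure D4:**
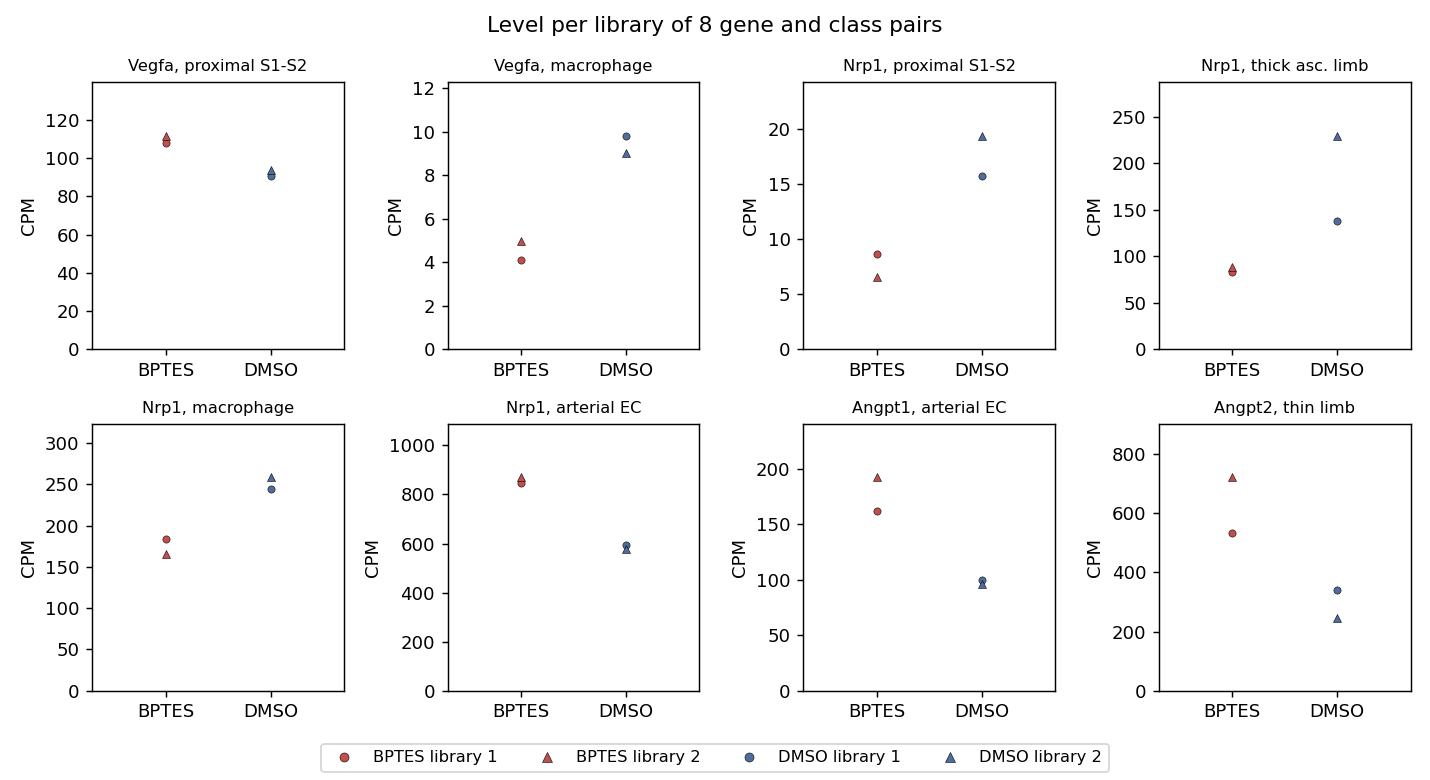
CPM per library for 8 pairs of gene and class, with BPTES on the left and DMSO on the right of each panel and axes starting at 0. Vegfa in S1-S2 cells lies at 108 and 112 CPM against 90.4 and 93.7 CPM, and in macrophages at 4.10 and 4.99 against 9.83 and 9.01 CPM.

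In macrophages Vegfa and Nrp1 were both lower under BPTES. Vegfa was at 4.10 and 4.99 CPM under BPTES and 9.83 and 9.01 CPM under DMSO (-1.06, SE 0.18, adjusted p = 0.0319), and Nrp1 at 184 and 165 against 244 and 259 CPM (-0.53, SE 0.08, adjusted p = 0.0247). In this class 2 of 9 members and 5.69% of all genes passed. With the replicate block 14 of 14248 genes passed, against 810 in the main fit, and the calls over all genes also fell without either BPTES library. Both calls were lost without BPTES library 1 (adjusted p = 0.131 for Vegfa and 0.0996 for Nrp1) or BPTES library 2 (0.1 and 0.131), and with the replicate block (0.0881 and 0.0809). The Vegfa call was also lost with a mitochondrial limit of 25% (-0.63, adjusted p = 0.0939), at Leiden resolution 2 (-0.75, adjusted p = 0.0772) and with predicted doublets kept (-0.47, adjusted p = 0.17). Its UMIs lay in 26, 32 and 58, 62 cells. Injured-tubule markers moved the same way in macrophages, at 47.9, 45.9 and 96.1, 80.5 CPM. Their list includes Vcam1, also a leading gene of an unnamed cluster that scored highest for macrophages at Leiden resolution 2. Neutrophil markers moved the same way too, at 52.1, 54.2 and 62.4, 135 CPM. So did the median UMI count per macrophage, at 15234, 14577 and 17843, 20759, and the median mitochondrial share, at 1.81%, 1.70% and 1.96%, 1.87%. The part of all these values in the result was not tested.

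Differences between classes were then tested as interactions of class and treatment, chosen after the opposite directions were seen. These interactions were refitted only with DESeq2 and with each library left out. They were not run with predicted doublets kept, the other mitochondrial limit or the other clusterings. The treatment difference of Vegfa in S1-S2 cells less that in macrophages was 1.43 (SE 0.15, adjusted p = 0.00524; 2.76% of genes passed). That of Nrp1 in arterial endothelium was higher than in macrophages by 1.07 (SE 0.14, adjusted p = 0.000928; 0.445% of genes passed) and higher than in S1-S2 cells by 1.64 (SE 0.16; 1.06% of genes passed). Angpt1 passed in the last comparison too, with arterial endothelium higher by 0.89 (SE 0.18, adjusted p = 0.000162), but not with DESeq2 (adjusted p = 0.768), without BPTES library 2 (0.61, adjusted p = 0.232) or without DMSO library 2 (0.73, adjusted p = 0.0778). In dendritic cells edgeR called 0 of 5 members (0 with an unadjusted p under 0.05) and 2.54% of genes, and in monocytes 0 of 6 (1 with an unadjusted p under 0.05) and 0.95% of genes. In neutrophils edgeR called 0 of 3 members (2 with an unadjusted p under 0.05) and DESeq2 called 1, Vegfa, with 0.731% of genes.

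Few of the wider pathway genes passed. The 7 lists were ligands, receptors, angiopoietin and Tie genes, endothelial signalling, VEGF-induced and tip cell genes, hypoxia response and extracellular modulators. Of their 51 further symbols, 49 matched the count tables. In capillary endothelium 45 of these genes were tested and 1 passed, where 0.328% of all genes did. It was Egr3, a transcription factor induced by VEGF, at 5.69 and 5.82 CPM under BPTES and 13.6 and 14.2 CPM under DMSO (-1.27, SE 0.22, adjusted p = 0.0479), opposite in sign to Esm1. The call was lost with DESeq2 (adjusted p = 0.102), with the replicate block (0.0767), without BPTES library 1 (0.142), BPTES library 2 (0.0798) or DMSO library 2 (0.143), and without any of sub-clusters 0, 4, 6, 8 and 9; Egr3 was -2.06 with predicted doublets kept and -1.94 at Leiden resolution 2, and passed in both. The 12 VEGF-induced and tip cell genes had a median log2 fold change of 0.02, with 6 above and 6 below 0, beside a median of -0.005 over all genes. Of the 12 hypoxia response genes, 11 were tested there and none passed; 0 had an unadjusted p under 0.05.

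In S1-S2 cells 40 of the 49 genes were tested and 1 passed, against 9.20% of all genes. It was Ptk2, the focal adhesion kinase, at 37.3, 39.8 and 32.0, 31.2 CPM (0.37, SE 0.09, edgeR, adjusted p = 0.0439). That call was lost without BPTES library 2 (adjusted p = 0.24) or DMSO library 1 (0.103), at Leiden resolution 2 (0.0831) and with the pathway genes used in clustering (0.0532). All 12 hypoxia response genes were tested there, with a median of 0.002 and 6 above and 6 below 0. In mural cells 1 of 34 passed: Unc5b, a netrin receptor, at 20.7, 22.2 and 77.1, 67.8 CPM (-1.83, SE 0.34, adjusted p = 0.0439), where 0.988% of all genes passed; it was lost with DESeq2 (adjusted p = 0.124), without BPTES library 1 (0.0709), with a mitochondrial limit of 25% (0.114) and with predicted doublets kept (0.229). The quality values of mural cells given above separate the groups here too.

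Further pathway genes passed in lymphocytes, in parts of the endothelium and in the interactions. Pdgfb, a ligand that recruits pericytes, was at 3.77, 6.02 and 24.2, 28.6 CPM in B cells (-2.44, SE 0.30, adjusted p = 0.0299; 0.459% of genes passed). Dusp5, a phosphatase of ERK, was at 148, 147 and 272, 241 CPM in NK cells (-0.84, SE 0.13, adjusted p = 0.00048; 0.837% of genes passed). Nr4a1, an immediate early nuclear receptor, was at 74.5, 75.0 and 112, 108 CPM in T cells (-0.52, SE 0.08, adjusted p = 0.0417; 0.333% of genes passed). All 3 were lower in both BPTES libraries than in either DMSO library, and no alternative was run in these classes. The median mitochondrial share of T cells was 2.02%, 2.04% and 1.96%, 1.82%; its part in the result was not tested.

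In capillary sub-cluster 0, Adamts1, a secreted protease, was at 152, 151 and 60.5, 90.1 CPM (1.05, SE 0.18, edgeR, adjusted p = 0.00849). In the whole capillary class, 7 extracellular modulators, Adamts1 among them, were tested, and 0 had an unadjusted p under 0.05 by edgeR. In sub-cluster 7, a venous one, Shb, an adaptor of VEGF receptor signalling, was at 194, 174 and 74.7, 91.6 CPM (1.13, SE 0.20, adjusted p = 0.0493; 0.0852% of genes passed), but in the venous class as a whole it did not pass (0.65, adjusted p = 0.552) and edgeR called 0 of 35 pathway genes (3 with an unadjusted p under 0.05). Apln, a tip cell peptide, was at 21.9, 12.5 and 227, 202 CPM in glomerular endothelial cells without a Plvap UMI (-3.56, SE 0.32, adjusted p = 4.51e-06), from 12, 4 and 107, 103 UMIs, a split added after the data were seen. In the whole glomerular class Apln was at 32.1, 10.1 and 558, 143 CPM and did not pass (-3.96, SE 1.31, adjusted p = 0.696), and edgeR called 0 of 28 pathway genes there (6 with an unadjusted p under 0.05). Dll4, a Notch ligand, passed in the interaction of glomerular and capillary endothelium (-1.05, SE 0.24, adjusted p = 0.0382). Adamts1 (-0.85, SE 0.24, adjusted p = 0.0376) and Rcan1 (-1.29, SE 0.24, adjusted p = 9.3e-05) passed in that of arterial endothelium less S1-S2 cells.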

How the data were processed

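The authors deposited tables of raw UMI counts, genes by barcodes, made with Cell Ranger 8.0.1 on mm10 per the submitters' processing notes. Barcodes were kept with at least 500 UMIs, 300 genes and at most 50% mitochondrial UMIs, and Scrublet's highest-scoring cells were removed at 0.4% per 1000 barcodes. Clustering used scanpy 1.11.5 (3000 variable genes, 40 components, 15 neighbours, Leiden resolution 1), and endothelial cells were clustered again with 2000 genes and 20 components. Clusters were named from marker lists, and 8 clusters (13.1% of cells) stayed unnamed. Counts were summed per library and class, since cells are not replicates, and tested with edgeR 4.0.16 (quasi-likelihood, robust, TMM scaling, filterByExpr) with Benjamini-Hochberg adjustment over all genes of a class and a threshold of 0.05. SEs come from the fold change and the F statistic. A class needed 30 cells in every library; a minimum of 20 was added for glomerular endothelium, thin limb, injured proximal tubule and plasma cells after cell numbers were seen. Arterial, venous and leukocyte classes, all endothelium together, sub-clusters, the Plvap split and the interactions with macrophages or S1-S2 cells were also added after seeing the data. Interactions had library as a block, and those with macrophages or S1-S2 cells were refitted only with DESeq2 and with each library left out. An exact permutation test of 2 against 2 libraries cannot go below 0.333 and was not used. Alternatives were DESeq2 1.42.0, RLE scaling, no low-count filter, a replicate block, each library left out in turn, clustering with the pathway genes or at resolution 2, doublets kept, and a 25% limit on mitochondrial UMIs. The tests were checked on simulated data in 4 classes. False calls were 20 of 184 calls in capillary, 4 of 112 in glomerular and 26 of 175 in arterial endothelium. In S1-S2 cells they were 14 of 181. Of 100 simulated 2-fold changes, 73, 27, 54 and 72 were recovered in these classes. The named genes are all 10 members, pathway genes that passed, and the 3 genes most like Vegfa, Kdr and Esm1 with at least 10 CPM in a class (pseudocount 1). The members and lists were chosen with earlier results of these data known.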

Additional observations from a re-analysis of the deposited data

Results flagged for a closer look

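The treatment difference of Esm1 was not the same in glomerular and capillary endothelium by a test of the difference itself, at -2.64 on the log2 scale (edgeR, adjusted p = 1.1e-06); Esm1 was higher under BPTES in 2 of 2 libraries of capillary cells and lower in 2 of 2 of glomerular cells. That call was lost with predicted doublets kept (-2.66, adjusted p = 0.497), and the glomerular groups overlapped among cells without a Plvap UMI (adjusted p = 0.88). For Vegfa the difference between S1-S2 cells and macrophages was 1.43 (adjusted p = 0.00524). For Nrp1 the difference was 1.07 between arterial endothelium and macrophages (adjusted p = 0.000928) and 1.64 between arterial endothelium and S1-S2 cells (adjusted p = 2.4e-21, from a variance shared across genes). For Angpt1 it was 0.89 between arterial endothelium and S1-S2 cells (adjusted p = 0.000162; 0.768 with DESeq2). These comparisons of classes were chosen because the Vegfa and Nrp1 results of single classes pointed in opposite directions, and Angpt1 came out of the same fit. Unlike the Esm1 interaction, those of Vegfa, Nrp1 and Angpt1 were not run with predicted doublets kept.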

How the results depend on the processing

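The number of members called in capillary endothelium was 1, where 40 of 12185 genes passed. Esm1 was among those called under every alternative run on the whole class. The count was 2 with DESeq2 (Nrp1 added), where 73 of 12185 genes passed. Without the low-count filter it was 3 (Nrp1 and Angpt2 added), where 422 of 19785 genes passed. It also varied when each library was left out, which leaves 1 library in that group. In glomerular endothelium the count of 1 became 0 of 9 with predicted doublets kept (edgeR, 2 with an unadjusted p under 0.05), where 34 of 8357 genes passed. It rose without DMSO library 2, where far more genes passed than in the main fit and 1 DMSO library was left. In tubule and stroma the 2 calls became 6 without the low-count filter, 6 with the replicate block and 4 with a mitochondrial limit of 25%. They became 1 at Leiden resolution 2 and 0 of 41 with predicted doublets kept (edgeR, 8 with an unadjusted p under 0.05). More genes also passed in each of these classes without the filter or with the replicate block. With the block, 3971 S1-S2, 642 S3, 801 distal convoluted tubule and 315 thick ascending limb genes passed, against 1390, 0, 7 and 14. Under the 25% limit 2558 S1-S2 and 296 S3 genes passed, but fewer in thick ascending limb, intercalated and mural cells. S1-S2 calls fell to 203 at resolution 2 and 986 with doublets kept. Leaving out each library gave 1 to 10 there, 10 without DMSO library 1. Without DMSO library 1, more genes of any kind also passed than in the main fit in each tubule and stroma class except S1-S2. In S1-S2 cells fewer passed. These fits leave 1 DMSO library, so the rise was not particular to the members. For the interaction of glomerular and capillary endothelium, 2 members passed with a mitochondrial limit of 25%, where 17 of 11117 genes did. With pathway genes among the clustering genes 2 also passed, where 39 of 11248 genes did, against 28 of 11252 in the main fit. The count also varied when each library was left out. With a library left out, the lone library of its group was assumed to vary like the other group. The cause of these changes was not tested.

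Across 43 single-gene results and 611 alternative fits, 489 kept direction and side of the threshold, 71 lost the call, 28 gained it and 23 turned. The log2 fold changes that turned without a library ranged, over the libraries left out, from -0.12 to 0.43 for Kdr and -0.13 to 0.56 for Flt1 in glomerular endothelium, -0.13 to 0.22 for Flt4 and -0.17 to 0.063 for Tek in capillary endothelium, -0.13 to 0.21 for Vegfa in S3 cells and -0.32 to 0.12 for Angpt1 in S1-S2 cells. Angpt1 in S1-S2 cells turned to 0.037 with a mitochondrial limit of 25%. Egr3 in capillary endothelium turned to 0.12 in sub-cluster 1 alone. Flt1 in capillary endothelium turned to -0.050 in sub-cluster 4 alone. Flt4 in capillary endothelium turned to -0.031 with predicted doublets kept and -0.65 in sub-cluster 2 alone. Tek in capillary endothelium turned to 4.4e-05 without sub-cluster 2, 0.012 in sub-cluster 1 alone, 0.064 in sub-cluster 6 alone and 0.010 in sub-cluster 8 alone. Tie1 in capillary endothelium turned to 0.061 in sub-cluster 8 alone. Vegfa in S3 cells turned to -0.057 with a mitochondrial limit of 25%, -0.00092 with predicted doublets kept, -0.018 at Leiden resolution 2 and -0.039 with the pathway genes used in clustering. The labels do not say that equal library numbers mark pairs, and the deviations of same-numbered libraries correlated at -0.235 to 0.225 across classes, so the numbers were not taken as pairs. In thin limb, 6 genes were called without a block, 0 with the replicate block (417 with an unadjusted p under 0.05) and 8 with the crossed pairing. Depth limits the glomerular, mural and thin limb results, which rest on 25 to 105 cells a library.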

Other observations

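Of the other pathway genes tested, 2 of 39 passed in macrophages, 1 of 38 in dendritic cells and 1 of 33 in monocytes, where 5.69%, 2.54% and 0.95% of all genes did. Nrp2, a co-receptor for VEGF-C and semaphorins, was at 15.6, 12.4 and 26.9, 34.6 CPM in macrophages (BPTES libraries 1 and 2, then DMSO libraries 1 and 2), a fall of 1.14 on the log2 scale (log2 fold change -1.14, SE 0.16, edgeR, adjusted p = 0.0265). In dendritic cells Nrp2 was at 7.68, 9.55 and 21.5, 24.5 CPM (-1.45, SE 0.14, adjusted p = 0.0208), and the median UMI count per dendritic cell was 31144, 33078 and 33531, 42334. Foxo1, a transcription factor restrained by Tek signalling, was at 54.6, 55.3 and 42.1, 42.6 CPM in macrophages (0.37, SE 0.07, adjusted p = 0.0398). In macrophages both calls were lost with the replicate block (adjusted p = 0.0841 for Nrp2 and 0.0902 for Foxo1), without either BPTES library, with a mitochondrial limit of 25% and with predicted doublets kept; that of Foxo1 was also lost without either DMSO library, and that of Nrp2 at Leiden resolution 2. Vegfc, the ligand of Flt4, was at 47.4, 46.6 and 12.1, 18.4 CPM in monocytes (1.70, SE 0.21, adjusted p = 0.0294), where the median UMI count per cell was 18949.5, 20645 and 24037.5, 22111 and the median mitochondrial share 1.69%, 1.57% and 1.80%, 1.70%. The part of these values in the results was not tested, and no alternative was run in dendritic cells or monocytes. In neutrophils Vegfa was at 61.9, 76.3 and 126, 216 CPM, and edgeR did not call it (-1.37, SE 0.27, adjusted p = 0.247) while DESeq2 did (adjusted p = 0.00683). edgeR also called Vegfa without the low-count filter (adjusted p = 2.11e-06), where 455 of 17833 genes passed. With the replicate block edgeR called it too (adjusted p = 0.0264), where 46 of 9570 genes passed, against 0 of 9570 in the main fit. It was called without either DMSO library, but far more genes passed there, and each such fit leaves 1 DMSO library. It was not called without either BPTES library or with predicted doublets kept (-0.87, edgeR, adjusted p = 0.341). The median mitochondrial share of neutrophils was 1.27%, 1.23% and 1.28%, 1.39%.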
